A study of Homo sapiens with 6 samples.

Results

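Adding 10 uM PTUPB to enzalutamide was read from 2 of the 6 RNA-seq libraries of the study, 1 that received both agents and 1 that received enzalutamide alone. The cells were C4-2B MDVR, a line derived from the human prostate cancer line C4-2B that is resistant to enzalutamide, so all values come from 1 line. PTUPB inhibits both cyclooxygenase-2 and soluble epoxide hydrolase, and enzalutamide is an antiandrogen. The groups used here were PTUPB 10 uM plus enzalutamide, PTUPB 20 uM plus enzalutamide, enzalutamide at 20 uM, PTUPB 10 uM, PTUPB 20 uM and DMSO, the vehicle control, each treated for 2 days. The labels give the enzalutamide dose for the single agent and not for the combinations, and an equal dose was assumed. Each group has 1 library, so differences have no replicate check and no test was made. The labels do not say whether the libraries came from separate cultures.

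Expression was measured as FPKM, fragments scaled to exon length and library size, and a difference is that of log2(FPKM + 1), the first named library minus the second. Of 58735 genes, 12960 averaged at least 1 FPKM across the libraries and were analysed, and a difference of log2 1 or more in size was counted as higher or lower. The library with PTUPB 10 uM plus enzalutamide held 25627945 fragments and that with enzalutamide 29450436, within the range of 20156523 to 29450436 over the 6 libraries. Intervals on folds are 95% exact binomial intervals for counting error only, and a fold is a ratio of FPKM without the added 1. All 7 markers of luminal prostate cancer cells were expressed, the lowest being KLK3 at 19.0 FPKM with both agents and KRT8 at 42.5 FPKM with enzalutamide. Of 8 blood markers, 6 were at 0 in both libraries, and their summed level was 0.351 FPKM with both agents and 0.0610 FPKM with enzalutamide. Of 8 basal epithelium markers 4 were at 0 in both, and the sums were 5.98 and 7.11 FPKM, mostly ITGB4 at 5.12 and 6.13 FPKM. Of 8 stroma markers 2 were at 0 in both, and the sums were 4.50 and 3.71 FPKM, mostly COL1A1 at 3.67 and 2.28 FPKM (0.51). Of 7 endothelium markers 3 were at 0 with both agents and 2 with enzalutamide, with sums of 0.416 and 0.614 FPKM. The part of these markers in the results was not tested. In bulk RNA, fewer cells of a kind and less RNA per cell cannot be told apart.

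Androgens drive secretory genes such as KLK3 in luminal prostate cells, and enzalutamide opposes this. Proliferating cells express their replication genes under E2F factors in G1 and S phase and their mitotic genes later, in G2. In many mitotic promoters a CCAAT box and a CHR element, the cell cycle genes homology region, are known to mediate this timing. Cyclooxygenases turn arachidonic acid into prostaglandins, and soluble epoxide hydrolase, the product of EPHX2, breaks down the epoxides that cytochrome P450 enzymes make from it.

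Genes of mitosis and DNA replication made up much of the set of protein-coding genes that were lower with PTUPB 10 uM plus enzalutamide than with enzalutamide. Over all genes analysed, 290 (2.24%) were higher and 204 (1.57%) lower past this threshold, with a median difference of -0.05. Differences were below 0 in 56.6% of genes and above 0 in 43.1%. Among 10693 protein-coding genes the order was the other way round, with 26 (0.243%) higher and 125 (1.17%) lower. Of those 125, 57 belonged to a cell cycle list, as did 161 of all 10693 protein-coding genes. The 57 include 2 replication-dependent histone genes. In the 7 cell cycle lists without the replication-dependent histones, 0 of 147 genes were higher, 55 were lower and 144 were below 0, with a median of -0.87. Of the 290 higher genes, 210 had under 50 fragments in the larger library, against 60 of the 204 lower genes.

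**Figure D1:**
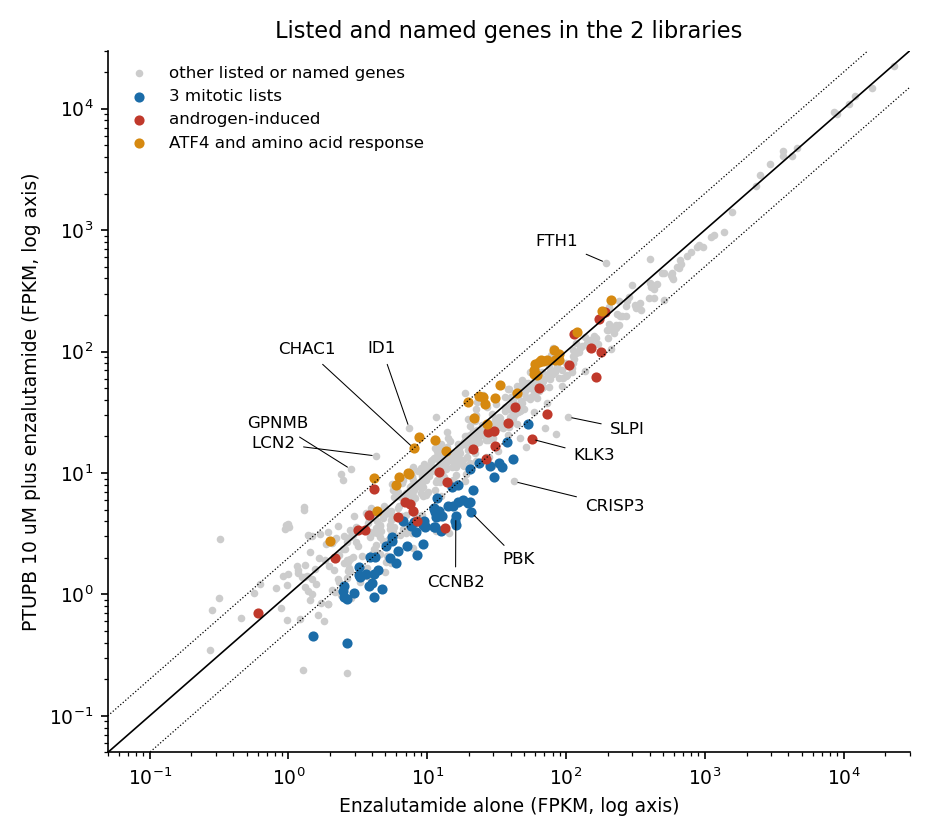
FPKM of listed and named genes with PTUPB 10 uM plus enzalutamide (vertical, log axis) and with enzalutamide (horizontal, log axis), each point a gene in 1 library a side. The solid line marks equal levels and the dotted lines a ratio of 2; all genes of the 3 mitotic lists lie below the solid line, and androgen-induced genes such as KLK3 reach below the lower dotted line.

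Genes of mitotic entry were among those furthest below. Of 20 mitotic kinases and entry genes, 15 were lower and 20 below 0, with a median of -1.23. CCNB2, a B-type cyclin that activates CDK1, had 4.39 FPKM with PTUPB 10 uM plus enzalutamide and 16.1 FPKM with enzalutamide, which is 3.66-fold lower (3.24 to 4.15). The gene lies on GRCh38 chromosome 15 at 59105078 to 59125045 in GENCODE 29. CCNB1, the other main mitotic cyclin, had 11.1 and 34.4 FPKM in the same libraries, a difference of -1.55. PLK1, a kinase of mitotic entry and spindle assembly, had 3.57 FPKM with both agents and 11.1 FPKM with enzalutamide (-1.41). The kinase PBK was at 4.74 and 20.8 FPKM, 4.38-fold lower (3.84 to 5.02). NEK2, a centrosomal kinase, differed by -1.64, and AURKA, the centrosome and spindle kinase, by -1.25. MYBL2, a transcription factor of mitotic genes, had 13.0 FPKM with both agents and 41.5 FPKM with enzalutamide (-1.60). FOXM1, another such factor, differed by -1.10, and CDK1 by -1.04. The whole list was thus below 0, although CDK1 itself still had 25.4 FPKM with both agents, against 53.5 FPKM with enzalutamide.

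The machinery of anaphase and of the spindle showed the same direction. Of 21 analysed genes of anaphase, cohesion and condensation, 14 were lower and 21 below 0, with a median of -1.12. CDC20, an activator of the anaphase-promoting complex, had 9.25 FPKM with PTUPB 10 uM plus enzalutamide and 30.3 FPKM with enzalutamide. UBE2C, the ubiquitin-conjugating enzyme of that complex, had 5.68 and 19.6 FPKM. BIRC5 encodes survivin, a subunit of the chromosomal passenger complex, and had 5.79 and 20.4 FPKM, 3.51-fold lower. Of 27 kinesin and kinetochore genes, 16 were lower and 27 below 0, with a median of -1.07. The spindle genes DLGAP5 and HMMR and the kinesin KIF20A differed by -1.85, -1.75 and -1.62. Outside these lists, CKS2, which binds cyclin-dependent kinases, had 20.9 FPKM with both agents and 84.3 FPKM with enzalutamide, 4.04-fold lower (3.59 to 4.56). MKI67, the proliferation marker, had 3.30 and 8.27 FPKM (-1.11).

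Replication lists had medians nearer to 0. Of 20 replication licensing genes, 5 were lower and 20 below 0, with a median of -0.77. CDC45 and GINS1, parts of the replicative helicase, differed by -1.49 and -1.44. The helicase subunit MCM7 had 15.2 FPKM with PTUPB 10 uM plus enzalutamide and 32.2 FPKM with enzalutamide (-1.04), and MCM2 differed by -0.84. Among 21 genes of DNA polymerases and nucleotide supply, 2 were lower, and the median was -0.67. TK1, thymidine kinase, had 23.6 FPKM with both agents and 71.1 FPKM with enzalutamide, and PCNA, the sliding clamp, differed by -0.95. Homologous recombination and Fanconi genes had a median of -0.63, with 2 of 18 lower, among them RAD51AP1 at -1.30. G1 and S cyclins, E2F factors and inhibitors had the smallest shift, a median of -0.36 with 1 of 20 lower. E2F1, which drives S phase genes, was at -0.88, the G1/S cyclin CCNE2 at -0.11, and CDKN1A, the CDK inhibitor p21, at 0.06 with 50.4 and 48.4 FPKM. The order of these medians ran from mitosis over replication to G1, and it was not tested.

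**Figure D2:**
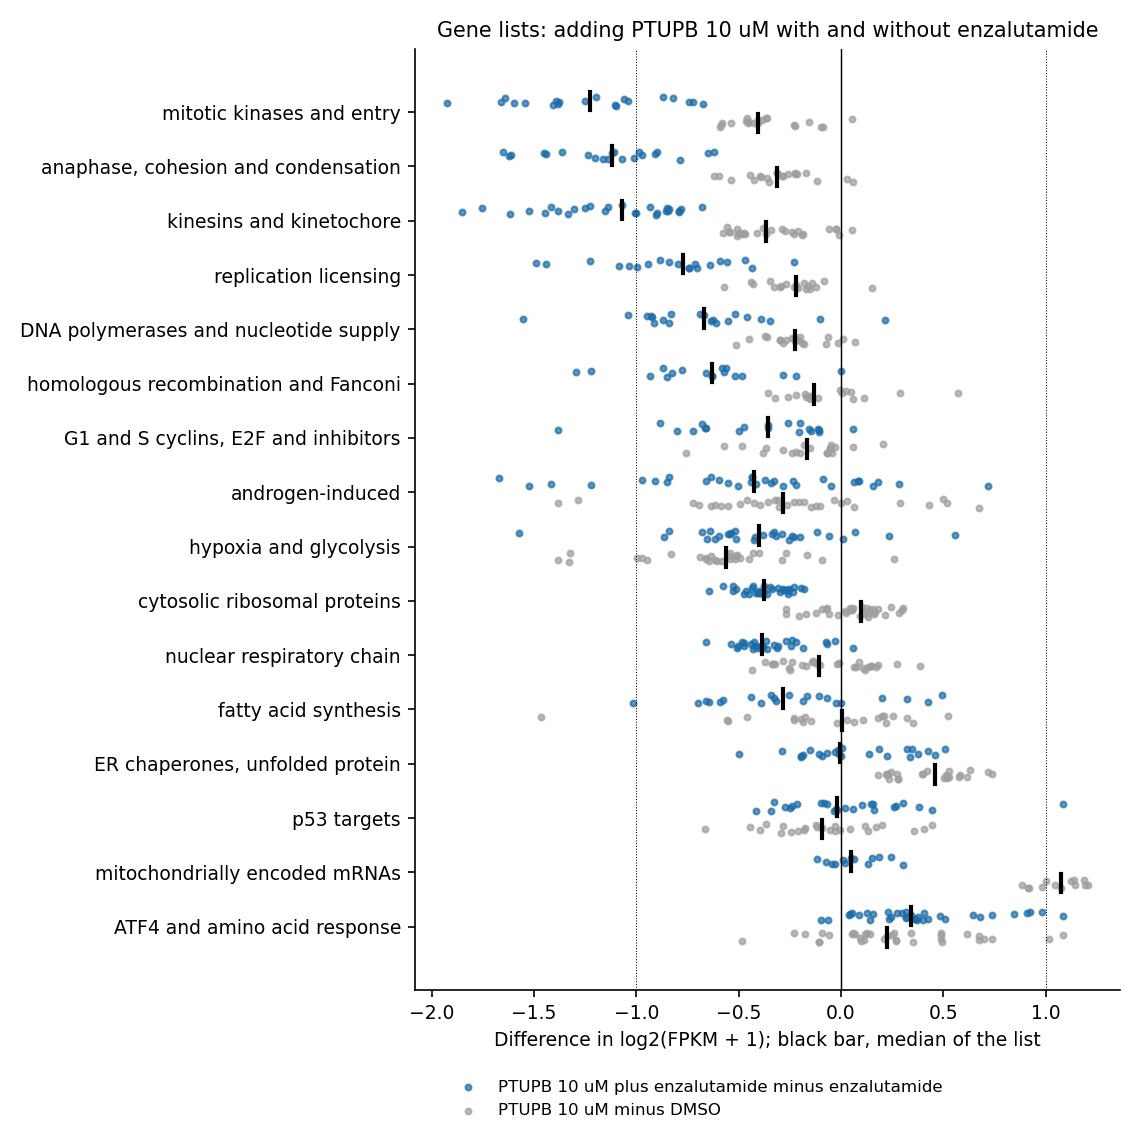
Differences in log2(FPKM + 1) of the genes in 16 lists (points) with the median of each list (black bars), for PTUPB 10 uM plus enzalutamide minus enzalutamide (blue, upper row) and PTUPB 10 uM minus DMSO (grey, lower row). The 3 mitotic lists have medians of -1.23 to -1.07 with enzalutamide and -0.41 to -0.31 without it.

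The same dose of PTUPB against DMSO, in the other pair of libraries, gave smaller differences in these genes. Over all genes 210 (1.62%) were higher and 100 (0.772%) lower there, and the median of the 147 cell cycle genes was -0.23, with 0 lower and 131 below 0, against 54.4% of all genes. CCNB2 had 15.6 FPKM with PTUPB 10 uM and 22.0 FPKM with DMSO, a difference of -0.47. For CKS2 these levels were 61.4 and 72.5 FPKM (-0.24). The difference with enzalutamide minus that without it had a median of -0.65 over the 147 genes and was below 0 in 139, against 52.1% of all genes analysed. It was -1 or less in 25 of them. Over all genes it was 1 or more in 2.16%, -1 or less in 2.15% and above 0 in 47.8%. With 1 library in each of the 4 groups, this contrast has no error estimate. Of the 124 lower protein-coding genes with at least 50 fragments, 113 (91.1%) were also below 0 without enzalutamide, against 57.7% of all 10643 such genes. Their median was -1.22 with enzalutamide and -0.36 without it.

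The dose series places these levels beside those at 20 uM. With enzalutamide and PTUPB at 0, 10 and 20 uM, the median level of the mitotic kinases and entry list was 11.3, 3.83 and 2.02 FPKM. Without enzalutamide it was 14.3, 11.03 and 1.15 FPKM at the same doses. At 10 uM the median was therefore lower with enzalutamide than without it, and at 20 uM it was higher with enzalutamide. For kinesins and kinetochore genes the medians were 5.99, 2.09 and 0.720 FPKM with enzalutamide, against 8.38, 5.62 and 0.392 FPKM without it. Both doses in the presence of enzalutamide are set against 1 shared library.

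**Figure D3:**
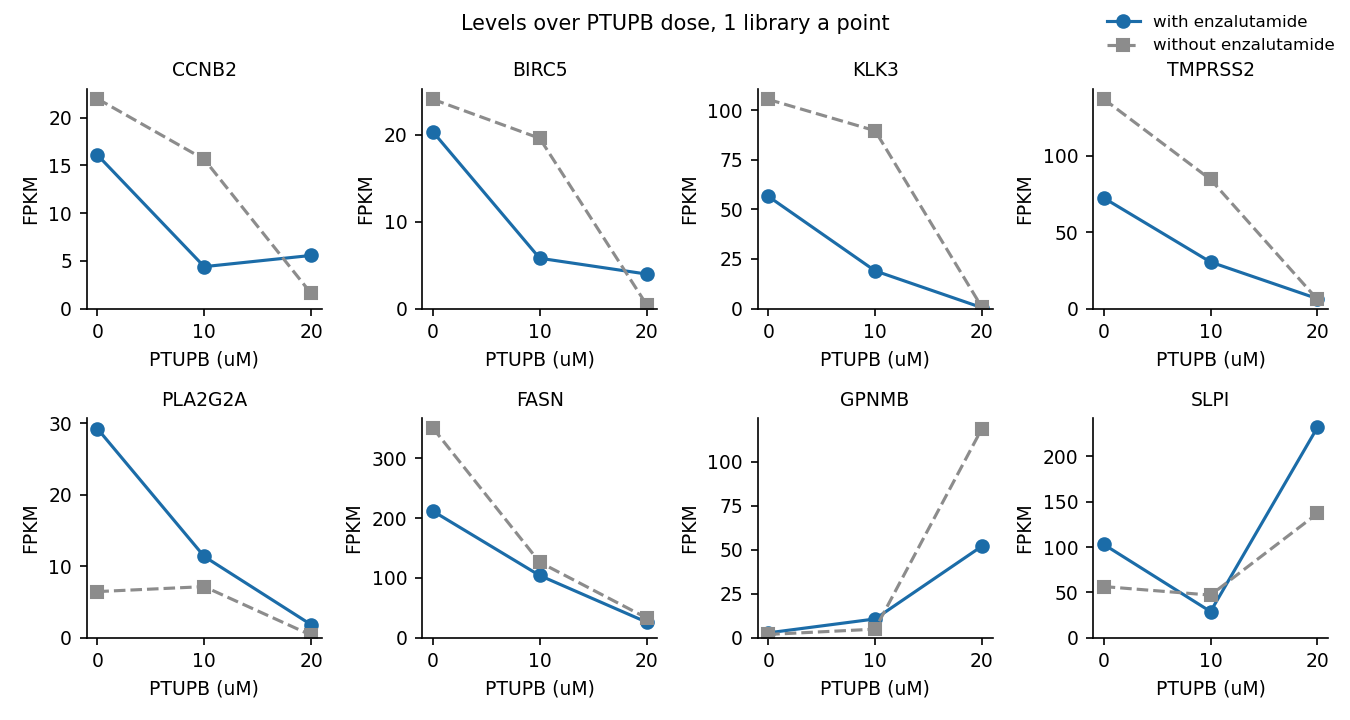
FPKM of 8 genes at PTUPB doses of 0, 10 and 20 uM with enzalutamide (blue circles) and without it (grey squares), 1 library a point. CCNB2 and BIRC5 have 4.39 and 5.79 FPKM at 10 uM with enzalutamide and 5.57 and 3.97 FPKM at 20 uM with it, and SLPI is at its lowest at 10 uM.

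Because mitotic genes made up much of the lower set, their promoters were read for the CHR and CCAAT elements. RefSeq promoters (GRCh38.p14, 250 bases before to 50 after the first listed start) were found for 8772 of the 10693 protein-coding genes, 98 of the 125 lower genes and 20 of the 26 higher ones. The CHR was searched as TTTGAA or TTCGAA and the CCAAT box as CCAAT, each on both strands. Stretches before the start of 4 lower genes are given because they carry both elements, in capitals. They are CCNB2 (chr15:59105046-59105145), PLK1 (chr16:23678789-23678888), CKS2 (chr9:89311095-89311194) and CDC20 (chr1:43358871-43358970), all on the plus strand.
CCNB2: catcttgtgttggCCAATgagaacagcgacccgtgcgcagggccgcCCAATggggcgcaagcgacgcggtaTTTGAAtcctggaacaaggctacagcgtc
PLK1: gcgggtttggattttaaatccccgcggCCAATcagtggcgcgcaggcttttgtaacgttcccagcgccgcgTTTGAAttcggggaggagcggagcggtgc
CKS2: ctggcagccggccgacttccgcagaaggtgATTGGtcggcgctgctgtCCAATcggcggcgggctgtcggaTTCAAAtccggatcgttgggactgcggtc
CDC20: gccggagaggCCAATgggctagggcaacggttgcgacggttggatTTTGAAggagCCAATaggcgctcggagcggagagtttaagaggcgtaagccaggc
In CCNB2, PLK1 and CKS2 the first base of the CHR lay at -29 from the start, and in CDC20 at -65. CKS2 carries the CHR and one CCAAT box on the opposite strand. GENCODE 29 places the start of CCNB2, PLK1 and CDC20 further upstream than RefSeq's first listed one, so these stretches lie partly or wholly inside the gene in that annotation.

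A CHR was present in 45 of the 98 lower genes (45.9%), in 2 of the 20 higher genes (10.0%) and in 921 of all 8772 promoters (10.5%). Outside the cell cycle lists, 19 of 50 lower genes held one (38.0%). The lists do not hold every cell cycle gene. Lower genes outside them include CKS2 and the centromere protein genes CENPH and CENPU, so this set is not free of cell cycle genes. Both elements were in 34 of the 98 lower genes (34.7%), against 4.59% of all promoters. In the mitotic lists 41 of 56 promoters held a CHR (73.2%), and in the replication lists 3 of 36 (8.33%). E2F letters (TTTGGCGC, TTTCGCGC, TTTCCCGC or TTTGCCGC, both strands) gave the other order, with 16 of 36 replication promoters (44.4%), 5 of 56 mitotic promoters (8.93%) and 5.70% of all. Of the 403 genes with both a CHR and a CCAAT box, 8.44% were lower by log2 1 or more, against 0.443% of the 4966 with neither. The lower genes were picked on this same contrast and the motifs after the values were seen, so these shares describe the genes, and a match of letters is not a site.

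**Figure D4:**
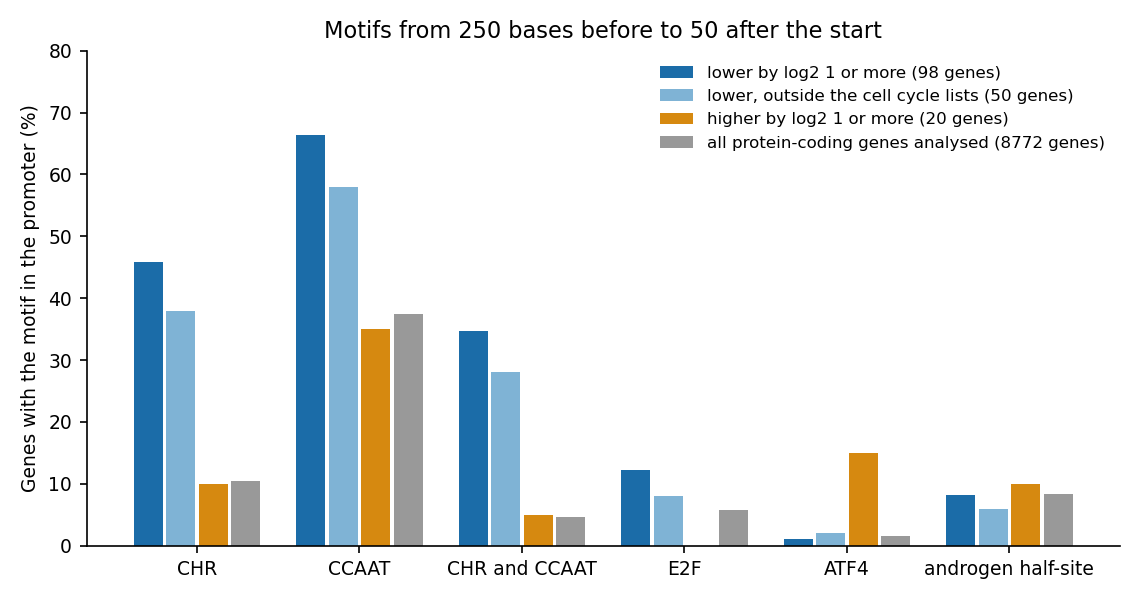
Percent of promoters (250 bases before to 50 after the start) that hold each motif, in lower genes, lower genes outside the cell cycle lists, higher genes and all protein-coding genes analysed. The CHR is in 45.9% of lower genes and 10.5% of all. Lower genes outside the lists still include cell cycle genes such as CKS2.

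Most androgen-induced genes were below 0, and few of them passed log2 1. Of 32 analysed androgen-induced genes, 4 were lower and 25 below 0, with a median of -0.43. Over all genes analysed, 1.57% were lower and 56.6% below 0. In the housekeeping list 13 of 16 genes were below 0, with a median of -0.34. KLK3, which encodes prostate-specific antigen, had 19.0 FPKM with PTUPB 10 uM plus enzalutamide and 56.6 FPKM with enzalutamide, 2.97-fold lower (2.84 to 3.12). KLK2, a related kallikrein, had 3.51 and 13.4 FPKM, 3.81-fold lower (3.49 to 4.18); reads of these similar genes may be shared. TMPRSS2, a serine protease, had 30.5 and 72.5 FPKM (-1.22). Other members differed less: FKBP5, a cochaperone of steroid receptors, had 4.33 and 6.21 FPKM (-0.44), and SLC45A3 had 21.7 and 27.5 FPKM (-0.33). TRPV6, a calcium channel, was the highest member, at 7.41 and 4.12 FPKM (0.72).

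Without enzalutamide the androgen-induced genes had a median of -0.28, so this list differed less between the 2 settings than the mitotic ones. KLK3 had 89.7 FPKM with PTUPB 10 uM and 105 FPKM with DMSO (-0.23), and TMPRSS2 had 84.6 and 137 FPKM (-0.69). FKBP5 differed more without enzalutamide than with it, at 13.9 and 35.4 FPKM (-1.29). KLK3 is shown for the androgen half-site AGAACA, in capitals, 190 to 131 bases before its start (chr19:50854725-50854784, plus strand).
KLK3: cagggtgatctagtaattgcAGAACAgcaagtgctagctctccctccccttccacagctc
The half-site was in 4 of 24 androgen-induced promoters (16.7%) and in 8.34% of all. Genes outside the lists that were also far down include CRISP3, a secreted cysteine-rich protein, at 8.52 FPKM with both agents and 42.1 FPKM with enzalutamide, 4.94-fold lower (4.49 to 5.45). MAB21L4 had 16.4 and 51.9 FPKM, and without enzalutamide 17.4 FPKM with PTUPB 10 uM and 54.2 FPKM with DMSO, so its difference was alike in both settings, at -1.60 and -1.58. SLPI, a secreted protease inhibitor, had 28.95 and 103 FPKM (-1.80).

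Few genes of the pathways that PTUPB targets passed log2 1. Of 35 arachidonic acid genes and drug targets 18 were analysed, 1 was lower and 14 were below 0, with a median of -0.19. PLA2G2A, a secreted phospholipase that releases fatty acids from membranes, had 11.4 FPKM with PTUPB 10 uM plus enzalutamide and 29.3 FPKM with enzalutamide, 2.57-fold lower (2.32 to 2.85). Without enzalutamide it had 7.17 FPKM with PTUPB 10 uM and 6.47 FPKM with DMSO. PTGS1, which encodes cyclooxygenase-1, had 1.46 and 3.22 FPKM (-0.78), and ABCC4, a transporter that exports prostaglandins, 13.1 and 26.6 FPKM (-0.97). EPHX2 had 7.97 and 8.35 FPKM (-0.06). PTGS2, the gene of cyclooxygenase-2, held 2 fragments with both agents and 0 with enzalutamide, too few for a comparison.

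Of the lipid synthesis genes, 1 passed log2 1. Fatty acid synthesis genes had a median of -0.29, with 1 of 22 lower. That gene, FASN, the fatty acid synthase, had 104 FPKM with PTUPB 10 uM plus enzalutamide and 212 FPKM with enzalutamide (-1.02), and without enzalutamide it had 126 FPKM with PTUPB 10 uM and 350 FPKM with DMSO (-1.47). SCD, the stearoyl-CoA desaturase, had 222 and 348 FPKM (-0.65). Cholesterol synthesis and uptake genes had a median of -0.21 with 0 of 22 counted. Neither median was further below 0 than that of the housekeeping list, at -0.34. INSIG1, which retains the SREBP complex in the endoplasmic reticulum, was at -0.98.

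Of 34 cytosolic ribosomal protein genes, 34 were below 0, with a median of -0.38, and 0 passed log2 1. Without enzalutamide their median was 0.10. Their median level was 369 FPKM with enzalutamide and 262 FPKM with both agents, against 254 FPKM with DMSO and 273 FPKM with PTUPB 10 uM. Nuclear respiratory chain genes had a median of -0.38 with 29 of 30 below 0, against -0.11 without enzalutamide. Both lists hold highly expressed genes, and the median of all genes in the top 10% by mean FPKM was -0.21, against 0.11 in the lowest 10%. Housekeeping genes had a median of -0.34 with 13 of 16 below 0. The part of level in these small shifts was not tested. The 13 mitochondrially encoded mRNAs had a median of 0.05, against 1.07 for PTUPB 10 uM minus DMSO, where 8 were higher. Their median level was 2022 FPKM with DMSO and 4259 FPKM with PTUPB 10 uM. It was 4614 FPKM with enzalutamide and 4781 FPKM with both agents, so of these libraries DMSO was the lowest. DMSO was not alone at that level in the series. The median was 1785 FPKM with PTUPB 20 uM and 2206 FPKM with PTUPB 20 uM plus enzalutamide. Hypoxia and glycolysis genes had a median of -0.40 with 26 of 30 below 0, and -0.56 without enzalutamide. CA9, a carbonic anhydrase induced by hypoxia, had 10 fragments with both agents and 125 with enzalutamide, and LDHA, lactate dehydrogenase A, had 31.9 and 59.0 FPKM.

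**Figure D5:**
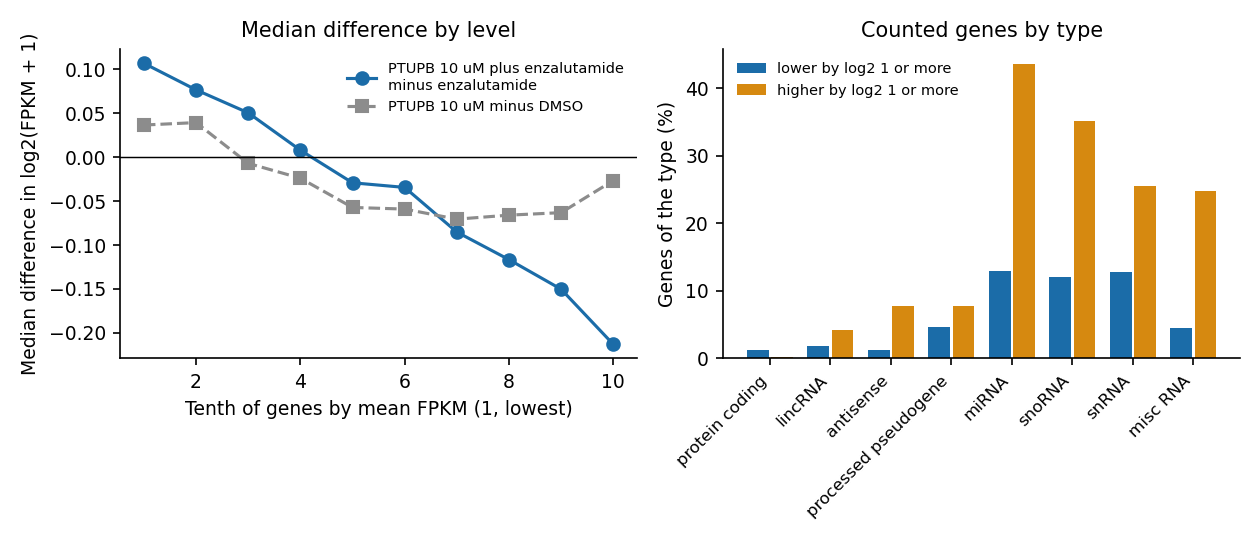
Left, median difference in log2(FPKM + 1) in 10 equal groups of genes ordered by mean FPKM, for PTUPB 10 uM plus enzalutamide minus enzalutamide (blue) and PTUPB 10 uM minus DMSO (grey); the blue medians run from 0.11 at the lowest levels to -0.21 at the top. Right, percent of genes of each type lower or higher by log2 1 or more with PTUPB 10 uM plus enzalutamide, with small RNA types highest.

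Most genes of the ATF4 list were above 0, and 1 passed log2 1. Of 35 genes of the ATF4 and amino acid response, which cells induce when amino acids are short or proteins misfold, 33 were above 0 with a median of 0.34. By comparison, 43.1% of all genes analysed were above 0 and 2.24% were higher. The gene counted as higher was SESN2, an inhibitor of mTORC1 signalling, at 19.7 FPKM with PTUPB 10 uM plus enzalutamide and 8.75 FPKM with enzalutamide, 2.25-fold higher (2.07 to 2.44). ATF5, a transcription factor, had 9.10 and 4.11 FPKM (0.98). CHAC1, which degrades glutathione, had 16.03 and 7.98 FPKM (0.92), and DDIT3, which encodes CHOP, 43.0 and 23.5 FPKM (0.85). SLC7A11, the cystine transporter, was at 0.74. Without enzalutamide the list's median was 0.22, with 28 of 35 above 0, against 45.4% of all genes analysed. An ATF4 motif is shown for CHAC1, 230 to 171 bases before the start (chr15:40953241-40953300, plus strand), with the letters TGATGNAA, here on the opposite strand, in capitals.
CHAC1: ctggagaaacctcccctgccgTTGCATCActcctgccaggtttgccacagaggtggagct
These letters were in 7 of 30 promoters of the list (23.3%) and in 1.62% of all.

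Endoplasmic reticulum chaperones and unfolded protein response genes did not share a direction, with 12 of 24 above and 12 below 0. For PTUPB 10 uM minus DMSO, 24 of 24 were above 0, against 45.4% of all genes analysed, with a median of 0.46. HSPA5, the main chaperone of the compartment, had 574 FPKM with PTUPB 10 uM plus enzalutamide and 403 FPKM with enzalutamide (0.51). ATF3, a stress-induced factor, had 9.99 and 7.32 FPKM (0.40), far from its 450 FPKM with PTUPB 20 uM plus enzalutamide. p53 targets had a median of -0.02, with 12 of 25 above 0 and 1, SESN2, higher, and apoptosis regulators a median of -0.02, both of which change sign with the scaling. Of 25 lysosome and autophagy genes, 16 were above 0 and 1 was higher, with a median of 0.11. These shares were 43.1% and 2.24% over all genes analysed.

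The 26 higher protein-coding genes had a median of 1.21. GPNMB, a lysosomal glycoprotein, had 10.7 FPKM with PTUPB 10 uM plus enzalutamide and 2.83 FPKM with enzalutamide, 3.79-fold higher (3.43 to 4.21). FTH1, the ferritin heavy chain, had 537 and 196 FPKM, 2.75-fold higher (2.69 to 2.81). FTH1 has many pseudogenes, and its reads may be shared with them. LCN2, an iron-carrying lipocalin, had 13.8 and 4.30 FPKM (1.48), and CD55, which protects cells from complement, 8.72 and 2.47 FPKM (1.49). LAMP3, a lysosomal membrane protein, was at 1.27. ID1, an inhibitor of basic helix-loop-helix factors, had 23.4 and 7.44 FPKM (1.53). ATP6V0C, a subunit of the proton pump of lysosomes, had 9.90 and 2.39 FPKM (1.69). Without enzalutamide it went the other way, at 4.31 FPKM with PTUPB 10 uM and 5.58 FPKM with DMSO (-0.31). DIO3, which inactivates thyroid hormone, had 2.84 and 0.320 FPKM. Short of the threshold, GDF15, a stress-induced cytokine, had 38.1 and 19.8 FPKM (0.91), whereas without enzalutamide it had 22.8 FPKM with PTUPB 10 uM and 26.8 FPKM with DMSO. Of the 26 higher genes, 25 (96.2%) were above 0 without enzalutamide as well, against 42.3% of the 10643 protein-coding genes with at least 50 fragments, and 4 were higher there by log2 1.

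Replication-dependent histone genes did not share the direction of the other cell cycle lists. Of 23 such genes 14 were analysed, 10 of them above 0, 1 higher and 2 lower, with a median of 0.24. HIST1H4H had 4.92 FPKM with PTUPB 10 uM plus enzalutamide and 1.29 FPKM with enzalutamide (1.37), HIST1H1E had 1.20 and 3.85 FPKM (-1.14), and HIST2H2AC 3.20 and 7.72 FPKM (-1.05). Histone genes are near-identical copies, so their reads may be shared.

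Lists of androgen-repressed and lineage genes held a mixture. Of 8 analysed androgen-repressed genes 4 were above and 4 below 0, with a median of 0.13, against 0.54 without enzalutamide. The 1 lower gene was PLA2G2A, which is also the lower gene of the arachidonic acid and drug target list. UGT2B15 and UGT2B17, close paralogs whose enzymes glucuronidate androgens, had 30.2 and 8.11 FPKM with PTUPB 10 uM plus enzalutamide, against 22.4 and 5.95 FPKM with enzalutamide. Their differences were 0.41 and 0.39 with enzalutamide and 1.42 each without it. Luminal and lineage factors had a median of -0.15, with GATA2, a zinc finger factor, at 24.0 and 33.4 FPKM and ESRP2, an epithelial splicing factor, at 11.2 and 7.97 FPKM. Steroid metabolism genes had a median of -0.12 over 13 genes. The neuroendocrine list had 4 analysed genes, 4 of them below 0, and SYT4, a synaptotagmin, had 267 FPKM with both agents and 512 FPKM with enzalutamide (-0.94). Without enzalutamide SYT4 differed by 0.09. The epithelial-mesenchymal transition list also had 4 analysed genes, among them the repressor SNAI1 at 1.26 and 3.30 FPKM (-0.93).

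The other stress and signalling lists had medians on either side of 0. NRF2 and glutathione genes had a median of 0.14 with 1 of 18 higher, FTH1; GCLC, which makes the first step of glutathione synthesis, had 4.39 and 2.96 FPKM (0.44). Heat shock genes had a median of -0.15 with 12 of 15 below 0, and HSPB1, a small heat shock protein, had 155 and 229 FPKM. Immediate early genes had a median of 0.02 and interferon genes one of 0.05. NF-kB targets had a median of -0.06, which changes sign with the scaling, with 1 of 12 higher, LCN2. MYC and ribosome biogenesis genes had a median of -0.17, with MYC itself at 60.9 and 94.5 FPKM (-0.63) and FBL, the nucleolar fibrillarin, at 41.5 and 61.6 FPKM (-0.56). LXR targets, PPAR targets and AHR genes had medians of -0.11, -0.10 and -0.48 over 9, 14 and 5 analysed genes, with 0 past log2 1 in each. In the lysosome list GLA, alpha-galactosidase A, had 13.7 and 27.8 FPKM (-0.98), while CTSD, the protease cathepsin D, had 38.1 and 22.8 FPKM (0.72) and SQSTM1, the autophagy receptor p62, 44.0 and 25.3 FPKM (0.77).

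The genes nearest the threshold show how it divides a continuous range. CENPM, at 7.90 and 16.8 FPKM, was just past -1, and GINS2, at 2.08 and 5.13 FPKM, just short of it. MYRIP, at 2.82 and 0.904 FPKM, was just past 1, and NPIPA5, at 9.44 and 4.24 FPKM, just short of it.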

How the data were processed

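RNA-seq of 6 libraries of C4-2B MDVR cells was analysed from the table of FPKM values that the authors deposited. Alignment used HISAT and quantification Cufflinks, per the submitters' processing notes, without versions. The genome build and the strandedness of counting are not given in the sources used here. Overlapping genes and genes with close paralogs or pseudogenes therefore have uncertain values. All 58735 gene IDs matched GENCODE 29, an own match. FPKM times exon length fell on whole multiples of 1 step per library (100% within 0.05 fragments), which gave fragments.

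Differences used a pseudocount of 1 and genes with mean FPKM of 1 or more (12960). Folds are given where both libraries hold more than 3 fragments, with 95% Clopper-Pearson intervals. The steps were tested on simulated data with changes larger than log2 1 placed only in genes with mean FPKM of 5 or more. Changes near log2 1, or in genes of lower level, were not simulated. Named genes are the 15 largest per direction among protein-coding genes with 50 or more fragments, 5 per list, a fixed set, and 10 per direction for the difference between settings; others were chosen after values were seen. Members, the 40 lists and the motifs were chosen with earlier results of these data known. Alternatives varied pseudocount, filter and scaling. Python 3.11.15, numpy 2.4.6, pandas 2.3.3, scipy 1.17.1 and matplotlib 3.10.9 were used. Some genes are not reported here.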

Additional observations from a re-analysis of the deposited data

Results flagged for a closer look

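HIST1H2AI, a replication-dependent histone gene, differed in opposite directions in the 2 settings. It had 1.81 FPKM (24 fragments) with PTUPB 10 uM plus enzalutamide and 5.49 FPKM (78 fragments) with enzalutamide, a difference of -1.21. Without enzalutamide it had 6.79 FPKM (101 fragments) with PTUPB 10 uM and 2.53 FPKM (38 fragments) with DMSO, a difference of 1.14. The difference between the settings was -2.35 on the log2 scale. It was not tested, since each group has 1 library, and reads of near-identical histone genes may be shared.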

How the results depend on the processing

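No paired analysis was possible because each group has 1 library and no test was made. A pseudocount of 0.1 gave 614 higher and 376 lower genes, and no filter on low values 614 and 344, against 290 and 204. A filter at mean FPKM of 5 gave 52 and 96. TPM with the pseudocount of 1, which is smaller relative to the rescaled values, gave 551 higher genes. Added after seeing the data, TPM with a pseudocount matched to FPKM gave 293 higher and 166 lower, a minimum of 50 fragments in the larger library gave 80 higher genes, and protein-coding genes alone gave 26 higher and 125 lower. Higher genes were 58.7% of those counted, but 62.0% with the pseudocount of 0.1, 64.1% without a filter, 35.1% at mean FPKM of 5, 67.2% with TPM, 67.4% with total fragments, 35.7% with the minimum of 50 fragments and 17.2% among protein-coding genes. The median of the androgen-repressed list was -0.091 without a filter, against 0.13. Of 63 named genes past log2 1, 60 were still past it with TPM and 58 with total fragments. Many of these genes were named for the size of this same difference, so the count is not an independent check. The median of all genes was -0.05, against 0.01 with TPM and 0.04 with total fragments. The lists within 0.1 of 0 for chaperones, p53, apoptosis and NF-kB changed sign with the scaling. Fewer genes of low level are analysed under the stricter filters by construction; otherwise the cause was not tested. Without replicates, no difference can be separated from variation between cultures.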

Other observations

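Some genes did not follow PTUPB dose in one direction. With enzalutamide and PTUPB at 0, 10 and 20 uM, SLPI had 103, 28.95 and 232 FPKM, ID1 had 7.44, 23.4 and 5.08 FPKM, and ATF5 had 4.11, 9.10 and 1.66 FPKM. CHAC1 had 7.98, 16.03 and 11.9 FPKM at these doses.

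VIM and TMSB4X, named for the size of their difference between settings, are given as single genes. VIM, which encodes the intermediate filament vimentin, had 5.11 FPKM with PTUPB 10 uM plus enzalutamide and 3.96 FPKM with enzalutamide (0.30), but 4.42 FPKM with PTUPB 10 uM and 11.9 FPKM with DMSO (-1.25). TMSB4X, an actin-binding thymosin, had 15.6 and 12.4 FPKM with enzalutamide present, and 15.9 and 30.5 FPKM without it. In both genes the DMSO library held the highest of the 4 levels.

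Small RNA types made up much of the higher set. Of 367 such genes, 120 were higher and 39 lower with PTUPB 10 uM plus enzalutamide, and 354 had under 50 fragments in the larger library. Antisense genes were higher in 43 and lower in 7 of 557, and lincRNA genes in 18 and 8 of 423.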
